A study of Homo sapiens with 23 samples.

Results

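Between 8 and 16 h after transfection, the change of the GFP effect on gene expression was followed on arrays. The cells were HEK293T, a line of human embryonic kidney origin that takes up plasmids readily. The contrast was the GFP-positive minus GFP-negative log2 difference at 16 h, less the same difference at 8 h. It used 12 of the 23 arrays of the series, 3 per group, and all 41716 of the 54675 probe sets that carry a gene symbol, which stand for 20033 genes. The groups are GFP-positive (labelled transfected) and GFP-negative (labelled untransfected) cells at 16 h, then GFP-positive and GFP-negative cells at 8 h. All 4 groups came from dishes that had received polyplexes of 25kDa branched polyethylenimine with the plasmid pEGFP-LUC, and the populations were split by flow cytometry on GFP, so the GFP-negative cells were exposed as well. The labels call the arrays biological replicates and do not say whether the dishes were separate, so each p-value refers to the spread among these arrays, which may be technical. One array titled as GFP-positive, 8 h, replicate 3 has a source name that says 16 h. It was kept at 8 h, and the contrast was also fitted without it.

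Polyethylenimine is a cationic polymer that condenses plasmid DNA into particles which cells take up by endocytosis. A cell turns green only after the plasmid has reached the nucleus and its reporter has been transcribed and translated, so a GFP sort separates cells that express the plasmid from neighbours that do not or do not yet. Carrier and foreign DNA are known to be able to trigger heat shock, integrated stress, p53 and cell cycle responses, whose genes are followed below.

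The 8 h and 16 h arrays were normalized apart, so levels are not set against each other between times, while the difference between populations at each time is. Among the markers of the cell line, NEFL lay at a median percentile of 90.5 of all probe sets over the 12 arrays, CDH2 at 93.3 and KRT18 at 87.4, whereas PTPRC, the pan-leukocyte marker, lay at 13.2. The median of the deposited log2 values was 4.96 in GFP-positive 16 h replicate 2, against 5.05 to 5.10 in the remaining 16 h arrays, and it was 4.66 to 4.71 at 8 h. The bioB hybridization control, RNA added in the laboratory, was higher in GFP-negative cells at 16 h. Its 6 probe sets averaged 5.97 ± 0.18 in GFP-positive and 8.24 ± 0.22 log2 units in GFP-negative arrays of 16 h, and 5.50 ± 0.35 and 5.32 ± 0.30 at 8 h (SD, n = 3 each). The part of this step in the differences below was not tested.

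Most probe sets that told GFP-positive from GFP-negative cells at one time had an effect of the same sign at the other, and no gene's GFP effect was shown to change between times. The sign was shared at 8 h by 98.2% of the 16 h calls above 0 and 97.1% of those below 0, and at 16 h by 94.3% of the 8 h calls above 0 and 92.4% of those below 0. In the limma fit of the 12 arrays, 0 of 41716 probe sets (0%) passed the difference at a Benjamini-Hochberg adjusted p of 0.05. The smallest adjusted p was 0.098, for WIPF2. At an unadjusted p under 0.05 there were 3160 probe sets (7.58%, where 5% is the nominal rate), 1535 higher (3.68%) and 1625 lower (3.90%) at 16 h. That count was 2066 without GFP-negative 16 h replicate 2, and 4739 (11.4%) in a fit that blocked replicate numbers within each time, in which 0 passed after adjustment. The share of higher probe sets among those at an unadjusted p under 0.05 was 48.6%, but 67.1% with each array centred on its median, 61.0% with the interquartile range also equalized and 65.6% without GFP-positive 16 h replicate 2.

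The precision sets what these arrays could show. The median standard error (SE) of the difference was 0.16 log2 units, and the median half-width of its 95% interval was 0.35. For 40636 probe sets (97.4%) the whole interval lay within 1 log2 unit of 0, that is, within a 2-fold change of the GFP effect.

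At each time alone many genes passed. In GFP-positive cells 1300 probe sets (3.12%) passed at 16 h, 811 higher (1.94%) and 489 lower (1.17%). At 8 h 2469 (5.92%) passed, 830 higher (1.99%) and 1639 lower (3.93%). Probe sets that passed at both times numbered 683, which is 52.5% of the 16 h and 27.7% of the 8 h calls. All 683 had the same sign, 410 above and 273 below 0, and their difference between times ran from -1.26 to 1.23 with a median of 0.04. Across all probe sets the effects at both times correlated with Pearson's r of 0.58 and Spearman's rho of 0.42. This is a description over probe sets, which are not independent, and the 2 effects share no array. The 1639 probe sets chosen below 0 on their 8 h values had a median effect of -0.26 at 16 h and -0.51 at 8 h, and the 489 chosen below 0 on their 16 h values had medians of -0.51 at 16 h and -0.44 at 8 h. The 128 probe sets (0.307%) that passed at least 2-fold above 0 at 16 h had medians of 1.24 at 16 h and 1.00 at 8 h. The 94 probe sets (0.225%) that did so at 8 h had medians of 1.29 at 16 h and 1.26 at 8 h, and the 14 (0.0336%) at least 2-fold below 0 at 8 h had -0.64 at 16 h and -1.13 at 8 h. A single probe set (0.00240%) passed at least 2-fold below 0 at 16 h. It was one of EME2, an endonuclease subunit, named after its values were seen, just past 2-fold at 16 h and with an effect of -0.99 at 8 h. Since each of these sets was chosen on its values at one time, its median at that time is set by the choice.

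The counts at each time depended on single arrays and on the pairing. The 16 h count was 352 without GFP-negative replicate 2, 656 without GFP-negative replicate 3, 662 without GFP-positive replicate 2 and 405 without GFP-positive replicate 3. The 8 h count was 911 without GFP-positive replicate 2, 1480 without GFP-positive replicate 3, 1241 without GFP-negative replicate 2 and 1169 without GFP-negative replicate 3. With the replicate block within each time, 2752 passed at 16 h and 4697 at 8 h.

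**Figure D1:**
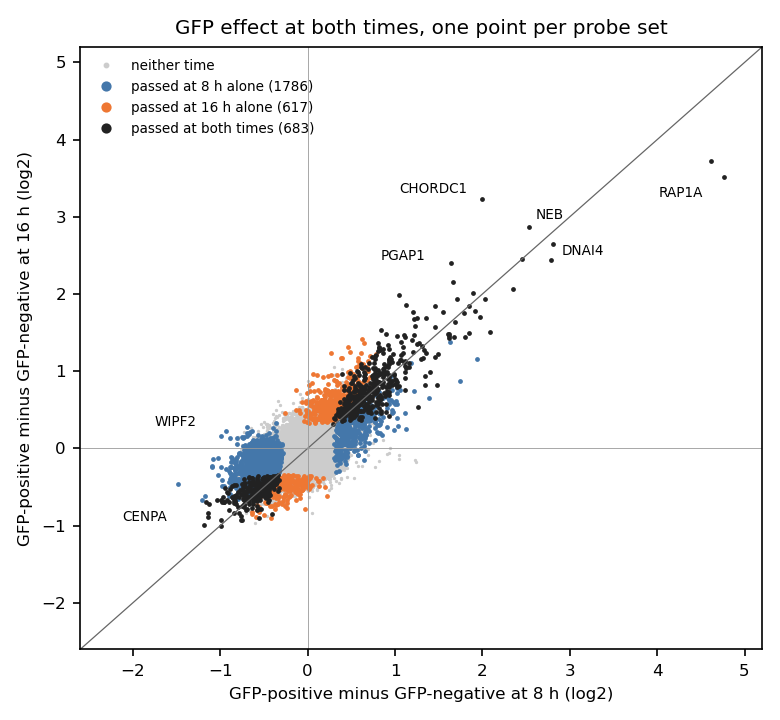
GFP effect (GFP-positive minus GFP-negative, log2) at 16 h on the vertical and at 8 h on the horizontal axis, one point per probe set, with the line of equal effects. The 683 probe sets that passed at both times lie where both effects have the same sign, and the 2 RAP1A and the CHORDC1 probe sets stand off the line.

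The strongest responses were followed through the probe sets chosen for passing at both times. Probe sets that passed at both times with at least a 4-fold effect at 1 time or more numbered 13, from 12 genes, all above 0 at both times, and this set was formed after its values were seen. For 9 of the 13 the interval of the difference included 0.

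ACTA1, the actin of skeletal muscle, measured 7.18, 7.10 and 7.84 log2 units in GFP-positive cells of 16 h, against 4.91, 4.91 and 4.94 in GFP-negative cells. The values at 8 h were 7.37, 7.06 and 6.88 in GFP-positive cells, against 4.79, 4.48 and 4.68 in GFP-negative cells. The populations stood far apart at each time, 5.48-fold at 16 h and 5.47-fold at 8 h. The difference of the log2 effects was 0.00, with a 95% interval of -0.52 to 0.53, so a change of the ACTA1 effect beyond about 0.5 log2 units lies outside the interval.

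NEB, which encodes nebulin, the thin-filament ruler of muscle, measured 6.23, 6.80 and 6.94 in GFP-positive cells of 16 h, against 3.96, 3.77 and 3.64 in GFP-negative cells. At 8 h it measured 6.03, 5.95 and 6.16 in GFP-positive cells and 3.36, 3.70 and 3.47 in GFP-negative cells. Its effect was 2.87 at 16 h and 2.54 at 8 h, and the difference of 0.33 had an interval of -0.15 to 0.82. The pairwise effects overlapped between times, as they did for TPH1, the peripheral tryptophan hydroxylase that starts serotonin synthesis (2.06 at 16 h and 2.35 at 8 h, difference -0.29). They also overlapped for DNAI4, a dynein intermediate chain (difference -0.16), SCG5, the secretogranin 7B2 (0.49), GCNA, a germ cell nuclear protein (-0.35), CFAP43, a cilia and flagella protein (0.12), DCAF4L1 (-0.58) and RBM26-AS1 (-0.10). Each value comes from 1 probe set of the gene. Dimmer probe sets of NEB (215368_at) and TPH1 (1553859_at) had 0.19 and 0.04 at 16 h and 0.31 and 0.16 at 8 h. Other CFAP43 probe sets had 0.04 to 0.27 at 16 h and 0.08 to 0.44 at 8 h. Those of DNAI4 had -0.06 to 1.77 at 16 h and 0.07 to 1.55 at 8 h. The brightest RBM26-AS1 probe set, 233021_at, had 0.66 at 16 h and 0.84 at 8 h.

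RAP1A, a small GTPase of the Ras family, had the greatest GFP effects at both times, through 2 of its probe sets. Probe set 1555340_x_at measured 13.38, 13.42 and 13.55 in GFP-positive cells of 16 h, against 10.29, 10.42 and 9.11 in GFP-negative cells. The 8 h arrays gave 12.77, 13.00 and 12.76 in GFP-positive cells and 7.90, 8.19 and 8.14 in GFP-negative cells. All arrays of one population lay above all of the other at each time, and GFP-negative 16 h replicate 3 lay more than 1 log2 unit below its replicates. The effect was 3.51 at 16 h (11.4-fold) and 4.77 at 8 h (27.2-fold), a difference of -1.26 (interval -2.01 to -0.51, adjusted p = 0.614 in limma). Without GFP-negative 16 h replicate 3 the difference was -1.67 with an adjusted p of 0.00465, and this was the single array whose removal brought any probe set past the threshold.

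A second RAP1A probe set, 1555339_at, had effects of 3.72 at 16 h and 4.61 at 8 h, with a difference of -0.89. The other 2 RAP1A probe sets followed neither: 202362_at had 0.18 at 16 h and 0.15 at 8 h, and 228548_at had -0.37 and -0.40. The RAP1A result therefore belongs to the first 2 probe sets and not to the gene's other probe sets. The GFP-positive values were close to the top of the scale, since the highest mean of any probe set with a symbol over the 12 arrays was 14.17 log2 units. Whether brightness limits the effect there was not tested.

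CHORDC1, a co-chaperone that binds HSP90, had the strongest positive difference of this set through probe set 239436_at. It measured 6.47, 6.73 and 7.32 in GFP-positive cells of 16 h, against 3.78, 3.53 and 3.54 in GFP-negative cells. At 8 h it measured 5.27, 5.27 and 5.25 in GFP-positive cells and 3.30, 3.22 and 3.28 in GFP-negative cells. The effect was 3.23 at 16 h (9.36-fold) and 2.00 at 8 h (3.99-fold), and the lowest pairwise effect of 16 h, 2.69, lay above the highest of 8 h, 2.05. The difference was 1.23 (SE 0.23, interval 0.74 to 1.72), with an adjusted p of 0.614. The brightest CHORDC1 probe set, 218566_s_at, had effects of 0.08 at 16 h and 0.03 at 8 h. On probe set 244321_at PGAP1, which remodels the lipid anchor of surface proteins, likewise had non-overlapping pairwise effects. They averaged 2.40 at 16 h and 1.64 at 8 h, a difference of 0.76 (0.13 to 1.39). The gene's other probe sets, the brightest among them, had effects of -0.43 to -0.03 at 16 h and -0.25 to 0.05 at 8 h.

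The 12 genes with the smallest p in each direction were named by rule, and none passed the adjusted threshold. Those with a higher effect at 16 h were mostly genes that were lower in GFP-positive cells at 8 h and near equal at 16 h. Of these 12 genes 10 passed below 0 at 8 h, and 0 of the 12 passed below 0 at 16 h. They were chosen by the p of the difference, and this choice favours such effects and pairwise separation. Beside the pairwise separation of all 12, 3662 of all probe sets (8.78%) had all 3 pairwise effects of 16 h above all 3 of 8 h, and 3433 (8.23%) had them below.

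WIPF2, a partner of WASP-family actin regulators, led this group with probe set 231251_at. It measured 4.57, 4.75 and 4.69 in GFP-positive cells of 16 h, against 4.52, 4.51 and 4.57 in GFP-negative cells. At 8 h it measured 3.39, 3.37 and 3.24 in GFP-positive cells, against 4.05, 4.16 and 4.21 in GFP-negative cells. The populations overlapped at 16 h and lay well apart at 8 h. The effect was 0.14 at 16 h and -0.81 at 8 h, a difference of 0.94 (SE 0.12, interval 0.68 to 1.21) with an adjusted p of 0.098. In the authors' deposited tables the posterior probability of a GFP effect for this probe set was 0.036 at 16 h and 0.999 at 8 h. The other 3 WIPF2 probe sets had differences of 0.41, 0.35 and 0.19, the last for the brightest. WIPF2 passed in 3 other settings, with adjusted p of 0.0323 when the 2 h arrays joined the fit, 0.0452 with equalized interquartile ranges and 0.0218 over all 54675 probe sets, and over all settings its adjusted p ran up to 0.546.

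TOX2, an HMG-box transcription factor, measured 5.73, 5.71 and 5.73 in GFP-positive cells of 16 h and 5.59, 5.50 and 5.65 in GFP-negative cells. The values at 8 h were 4.40, 4.23 and 4.38 in GFP-positive cells and 5.15, 5.03 and 5.51 in GFP-negative cells. Its effect was 0.14 at 16 h and -0.89 at 8 h, and the difference of 1.03 had an adjusted p of 0.344. TERF2, a shelterin protein of telomeres, had 0.27 at 16 h and -0.69 at 8 h on probe set 203611_at. Its brightest probe set, 229790_at, remained below 0 at both times, at -0.47 and -0.66. LIMCH1, an actin-binding activator of non-muscle myosin, had differences of 0.90, 0.52 and 0.30 on 3 probe sets, all with unadjusted p under 0.05.

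The others of the 12 had differences between 0.48 and 0.90. They were SMDT1, a regulator of the mitochondrial calcium uniporter, TP73, a p53-family transcription factor, CENPN, a kinetochore protein that reads CENP-A nucleosomes, PHLDB3, SLC4A4, a sodium bicarbonate cotransporter, TRAM2, a translocon-associated protein, and APBB2, an adaptor that binds the amyloid precursor protein. CENPN and CHORDC1 were the 2 of the 12 that passed above 0 at 16 h, each on a probe set that was not the gene's brightest. The brightest CENPN probe set, 219555_s_at, had 0.07 at 16 h and a difference of 0.07. For 8 of the 12 genes the probe set was not the brightest. SMDT1 had differences of 0.03 and 0.17 on its brighter probe sets, and TP73 had -0.02 on its brightest. Of the 31 further probe sets of these genes, 5 from 4 genes (WIPF2, LIMCH1, APBB2 and CENPN) had an unadjusted p under 0.05 in the same direction and 0 in the opposite one. Other probe sets of the same gene can read other transcript ends or splice forms, which was not tested.

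Of the 12 genes with the smallest p in the lower direction, all lay above 0 at 8 h and 10 had effects of opposite sign at 16 h. The choice by p favours this pattern as well. The differences of these 12 genes ran from -0.75 to -0.55, and all had an adjusted p of 0.614. FOXN3, a forkhead transcription repressor, had the greatest of them on probe set 205021_s_at. It measured 6.49, 6.59 and 6.46 in GFP-positive cells of 16 h, against 6.26, 6.34 and 6.23 in GFP-negative cells, and 6.73, 6.98 and 7.19 against 5.99, 6.13 and 5.84 at 8 h. The effect was 0.24 at 16 h and 0.99 at 8 h, and GFP-positive cells were higher in every pair. The gene's other 7 probe sets had differences of -0.22 to 0.33, and one of them, 218031_s_at, had an unadjusted p under 0.05 the opposite way.

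OR7C2, an olfactory receptor, had -0.31 at 16 h and 0.32 at 8 h. COL25A1, a transmembrane collagen, had -0.30 and 0.36, and RBM47, an RNA-binding protein of RNA editing complexes, had -0.35 and 0.29. For RBM47 the brightest probe set went the other way, with a difference of 0.63. STK24, a Ste20-family kinase, had 0.03 at 16 h and 0.65 at 8 h on 215188_at, while its 2 brighter probe sets had differences of 0.22 and 0.08. The group also held CNDP2, a cytosolic dipeptidase, QDPR, which regenerates tetrahydrobiopterin, ALDH3B1, an aldehyde dehydrogenase, TGM6, a transglutaminase, NHLRC4 and LOC91548. Among the 22 further probe sets of the 12 genes 0 had an unadjusted p under 0.05 in the same direction and 2 had one in the opposite direction.

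**Figure D2:**
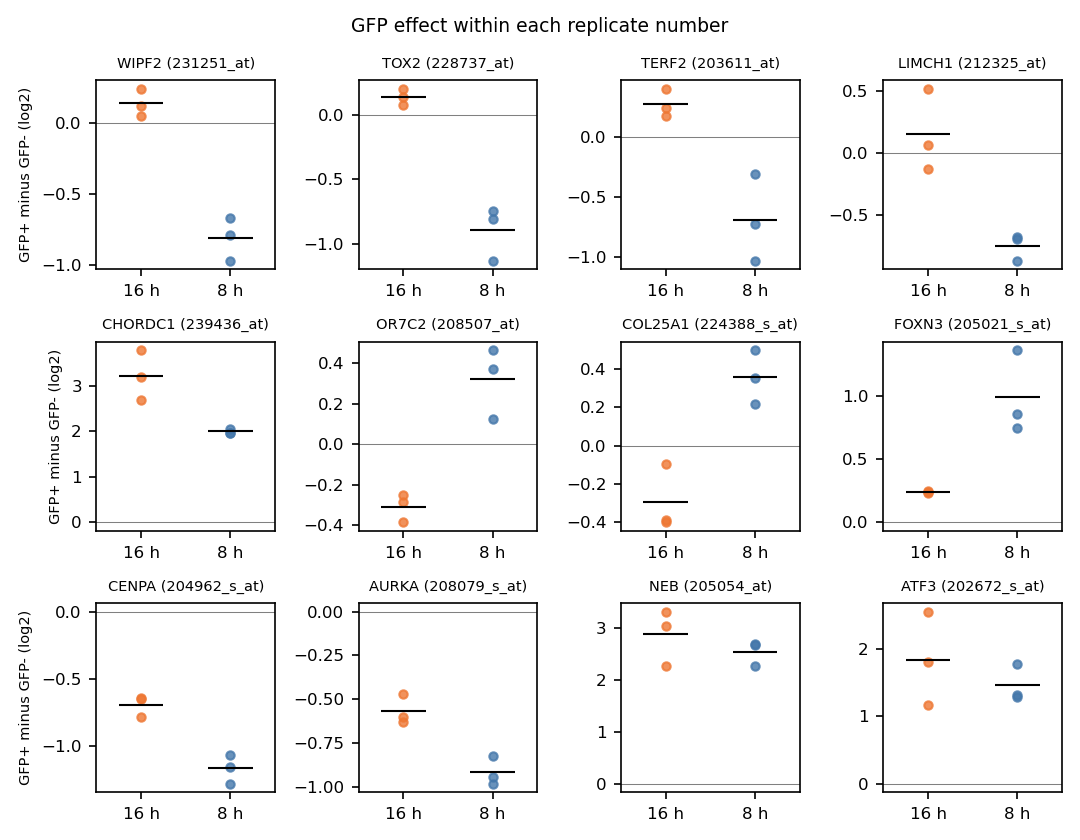
Pairwise GFP effect (log2, GFP-positive minus GFP-negative array of the same replicate number) at 16 h (orange) and 8 h (blue) for 12 genes, with the mean as a line and 0 marked in grey. Each gene is shown by a single probe set. The 3 effects of each time do not overlap for WIPF2, TOX2, TERF2, LIMCH1, CHORDC1, OR7C2, COL25A1, FOXN3, CENPA and AURKA, and overlap for NEB and ATF3.

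Among the 3160 probe sets at an unadjusted p under 0.05, effects of opposite sign were the most frequent pattern. These probe sets were chosen on the difference of the effects, which favours opposite signs, and the share over all probe sets was not counted. Effects below 0 at 16 h and above 0 at 8 h made up 1436 (45.4%), of which 14 passed at 16 h and 47 at 8 h. Effects above 0 at 16 h and below 0 at 8 h made up 952 (30.1%), of which 15 passed at 16 h and 124 at 8 h. Effects below 0 at both times and smaller at 16 h made up 427 (13.5%), and 387 of them passed at 8 h. Those above 0 at both times and larger at 16 h were 156 (4.94%), with 118 passing at 16 h. No probe set passed at both times with opposite signs.

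The sign of the difference moved with the level of the probe set. The probe sets were sorted by mean level over the 12 arrays into 10 equal bins, from 1 for the lowest to 10 for the highest. The median difference was -0.04 to -0.09 in bins 1 to 5 and 0.03 to 0.08 in bins 7 to 10. The share of probe sets above 0 was 32.7 to 39.4% in bins 1 to 5 and 60.7 to 66.3% in bins 7 to 10. After quantile normalization of the 12 arrays the median stayed between -0.03 and 0.01 in every bin. Gene lists made of bright genes are therefore read beside the 13559 genes of bins 5 to 10, whose median difference was 0.04 with 8053 above 0. Over all 20033 genes, each by its brightest probe set, the median was 0.00 and 50.6% were above 0.

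**Figure D3:**
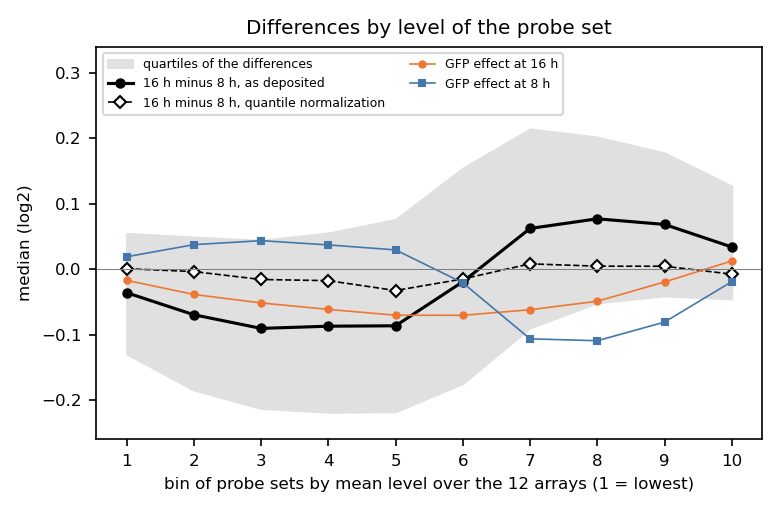
Median over probe sets (log2) of the GFP effect at 16 h and at 8 h and of their difference, by bin of mean level over the 12 arrays, with the range between the quartiles of the differences shaded. The difference as deposited lies between -0.09 and -0.04 in bins 1 to 5 and between 0.03 and 0.08 in bins 7 to 10, and the line after quantile normalization lies near 0 throughout.

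Gene lists were read through each gene's brightest probe set, and of the 593 list entries measured in 27 lists 0 passed the difference. At an unadjusted p under 0.05 there were 36 higher and 11 lower, beside 851 (4.25%) and 812 (4.05%) of all 20033 genes. Medians of 21 lists were above 0. The sign of the median was the same under the deposited, quantile, median-centred and interquartile-scaled values for 11 lists, 7 above and 4 below 0.

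Targets of p53, the transcription factor that arrests or kills damaged cells, had the highest median difference of the 27 lists as deposited. The median difference over its 21 genes was 0.29, with a median GFP effect of 0.25 at 16 h and -0.02 at 8 h, and 19 of the 21 lay above 0. Under the 3 other normalizations the median was 0.20 to 0.33. By pair the list's median was 0.17, 0.17 and 0.38 at 16 h and -0.02, -0.02 and -0.11 at 8 h, so the 16 h pairs all lay above the 8 h pairs and replicate 3 was the most distant at both times. In GFP-positive cells 3 members passed at 16 h, beside 2.25% of all genes, all higher (GADD45A 0.74, DDB2 0.74 and SESN2 0.80), and 0 passed at 8 h. Their own differences were 0.43, 0.46 and 0.19, and none of these passed. The arrays measure RNA of listed targets, and whether p53 was active in these cells was not tested.

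At an unadjusted p under 0.05 the list had 5 members higher and 0 lower, and 8 higher with the replicate block within each time, in which 6.64% of all genes were higher at that p. The 5 list members higher without the block were TP53INP1, a p53 co-activator of cell death (0.64), BTG2, an antiproliferative factor (0.57), SESN1, a stress-induced inhibitor of growth signalling (0.41), TNFRSF10B, a death receptor (0.33), and MDM2, the ligase that degrades p53 (0.33). TP53INP1 measured 7.63, 7.75 and 8.22 in GFP-positive cells of 16 h, against 7.48, 7.43 and 7.30 in GFP-negative cells. At 8 h it measured 6.64, 6.77 and 6.40 in GFP-positive cells, against 6.90, 6.59 and 6.86 in GFP-negative cells. Its pairwise effects overlapped between times, since replicate 2 of 8 h (0.18) lay above replicate 1 of 16 h (0.15). CDKN1A, the p21 inhibitor of cyclin-dependent kinases, had 0.25 at 16 h and -0.13 at 8 h, a difference of 0.38 with an interval of -0.08 to 0.84.

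Genes of G2 and mitosis had a median effect below 0 at both times, while most members did not pass. Of the 31 measured, 7 passed below 0 at 16 h and 12 at 8 h, beside 1.23% and 4.90% of all genes. Of the 13559 genes of bins 5 to 10, 226 passed below 0 at 16 h and 952 at 8 h. The list's median effect was -0.25 at 16 h and -0.33 at 8 h. CENPA, the histone variant of centromeres, measured 9.24, 9.14 and 9.41 in GFP-positive cells of 16 h, against 9.89, 9.92 and 10.05 in GFP-negative cells. The 8 h arrays gave 8.09, 7.95 and 8.07 in GFP-positive cells and 9.24, 9.23 and 9.13 in GFP-negative cells. On this brightest probe set it was lower in every GFP-positive array at both times, with effects of -0.69 at 16 h and -1.17 at 8 h, and the pairwise effects did not overlap. The difference was 0.47 (interval 0.19 to 0.76, adjusted p = 0.614). The other CENPA probe set had -0.62 at 16 h and -0.56 at 8 h, a difference of -0.05, and its pairwise effects overlapped.

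AURKA, a spindle pole kinase, had effects of -0.57 at 16 h and -0.92 at 8 h, a difference of 0.35 on its brightest probe set and of 0.17 and 0.03 on the other 2. Members with no passing effect at 16 h but one below 0 at 8 h included KIF23, a kinesin of cytokinesis (-0.16 and -0.72), UBE2C, a ubiquitin-conjugating partner of the anaphase-promoting complex (-0.37 and -0.88), and CDK1, the mitotic kinase (-0.09 and -0.49). CENPF, a kinetochore protein, went the other way, with -0.30 and 0.09. CCNB1, the mitotic cyclin, had -0.53 at 16 h and -0.31 at 8 h on its brightest probe set. On its other probe set, 228729_at, it had -0.67 and -0.70, a difference of 0.03. The list's median difference was 0.08, with 18 of 31 above 0, 5 higher and 1 lower at an unadjusted p under 0.05, and it was -0.04 with equalized interquartile ranges. Genes of the G1/S transition had a median effect of 0.19 at 16 h and 0.05 at 8 h. Of these 27 genes 24 had a difference above 0, with a median of 0.12 that turned to -0.04 under the same scaling, and 0 reached an unadjusted p under 0.05. CCNE2, a cyclin of S phase entry, had 0.82 at 16 h and 0.50 at 8 h, and its difference of 0.32 had an interval of -0.22 to 0.85.

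The ATF4 list, genes that the integrated stress response turns on, had 23 of 27 members above 0 and a median difference of 0.18, which was 0.00 with equalized interquartile ranges. ATF3, a stress-induced repressor, measured 10.58, 11.10 and 11.95 in GFP-positive cells of 16 h and 9.41, 9.30 and 9.40 in GFP-negative cells. At 8 h it measured 9.75, 10.51 and 9.91 in GFP-positive cells and 8.43, 8.73 and 8.63 in GFP-negative cells. On this brightest probe set GFP-positive arrays were above all GFP-negative arrays at each time, and the difference of the effects was 0.38 (interval -0.43 to 1.18). A dimmer ATF3 probe set, 1554980_a_at, had 1.99 at 16 h and 1.04 at 8 h, and its pairwise effects did not overlap. Its difference of 0.94 had an unadjusted p of 0.014 and an adjusted p of 0.617 in limma. The dimmest, 1554420_at, had a difference of -0.29. DDIT4, an inhibitor of mTORC1, had 1.23 at 16 h and 1.49 at 8 h, and DDIT3, the CHOP factor of terminal stress, had 1.06 and 1.12. SLC3A2, the heavy chain of amino acid exchangers, passed at 16 h (0.73) and not at 8 h (0.14), and its difference of 0.59 had an adjusted p of 0.614.

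Heat shock genes had a median effect of 0.11 at 16 h and 0.08 at 8 h, with a median difference of 0.02 over 27 genes. That median turned to -0.013 after quantile normalization and to -0.14 with equalized interquartile ranges, where 10 of 27 lay above 0. DNAJB1, the co-chaperone of HSP70, had 0.86 at 16 h and 0.80 at 8 h, with an interval of the difference of -0.34 to 0.45. HSPA1A, an inducible HSP70, had 0.89 and 0.52. The 4 members with an unadjusted p under 0.05 as deposited were all higher, beside 4.25% of all genes. Among the 13559 genes of bins 5 to 10, 782 were higher at that p. With equalized interquartile ranges 3 members were higher and 3 lower. The 4 were DNAJB6, a suppressor of protein aggregation (0.97 at 16 h and 0.39 at 8 h), HSPB1, HSPA2 and HSF2. For DNAJB6 the pairwise effects were 0.79, 1.06 and 1.06 at 16 h and 0.42, 0.39 and 0.37 at 8 h, which did not overlap, and the adjusted p of the difference was 0.614.

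Subunits and general factors of RNA polymerase II had small shifts in one direction. All 19 had a difference above 0, with a median of 0.16, but the median was -0.02 and 8 of 19 were above 0 with equalized interquartile ranges. POLR2A, the catalytic subunit, had 0.14 at 16 h and -0.24 at 8 h. Core splicing factors behaved alike in count, with 19 of 24 above 0 and a median of 0.10, which turned to -0.12 with 5 of 24 above 0 under the same scaling. None of these members passed at any time except 1 splicing factor below 0 at each time.

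Lists named for muscle, cilia and granules held several of the strongest responders, and their medians were near 0. Cilia and axoneme genes had 8 members passing above 0 at 16 h and 6 at 8 h, beside 2.25% and 2.39% of all genes, and a median difference of -0.04. DNAI3, a dynein intermediate chain, passed at 16 h (0.72) and not at 8 h (-0.01), a difference of 0.73, while the axonemal dyneins DNAH9, DNAH11 and DNAI1 had differences of -0.50, -0.29 and -0.45. Histone genes had a median effect of 0.34 at 16 h and 0.16 at 8 h, yet a median difference of 0.01 (-0.013 after quantile normalization and -0.13 with equalized interquartile ranges), because a median of differences need not equal the difference of medians. H2BC21, an H2B gene, passed at 8 h (1.02) and not at 16 h (0.39).

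Of the 33 interferon-stimulated genes 2 passed above 0 at 16 h, ISG20 (0.92) and IFI27 (0.65), beside 2.25% of all genes, and 0 passed at 8 h. As deposited the list had a median difference of -0.06 and 0 members at an unadjusted p under 0.05, and the median turned to 0.03 with equalized interquartile ranges. IFIT1, an RNA-binding effector of the interferon response, had -0.39 at 16 h and -0.56 at 8 h. The 24 genes of the NF-kB list had a median of 0.03, and the single member that passed was RELA, the p65 subunit, at 8 h (0.13 at 16 h and -0.39 at 8 h). Of the 26 immediate early genes 2 passed above and 1 below 0 at 16 h, and 1 passed above and 2 below 0 at 8 h. Over all genes the shares above and below 0 were 2.25% and 1.23% at 16 h, and 2.39% and 4.90% at 8 h. EGR1, an immediate early factor, was below 0 in every pair at both times on its brightest probe set (-0.65 and -0.80, difference 0.15). Its dimmer probe set 201693_s_at had a difference of 0.45 with pairwise effects that did not overlap (unadjusted p = 0.043 in limma), and 227404_s_at had 0.09. FOS had 0.32 and 0.25, and CXCL8, a neutrophil chemokine, had -0.11 and 0.08. The 2 lists of other cell types, blood and stroma with endothelium, had medians of -0.15 and -0.12 and held 4 of 20 genes above 0. Most of these genes are dim in HEK293T cells, and the 6474 genes of bins 1 to 4 had a median of -0.08. The mean over the 10 haematopoietic markers was 4.51 to 4.67 in GFP-positive and 4.63 to 4.69 in GFP-negative arrays of 16 h, and 4.22 to 4.41 and 4.24 to 4.27 at 8 h.

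**Figure D4:**
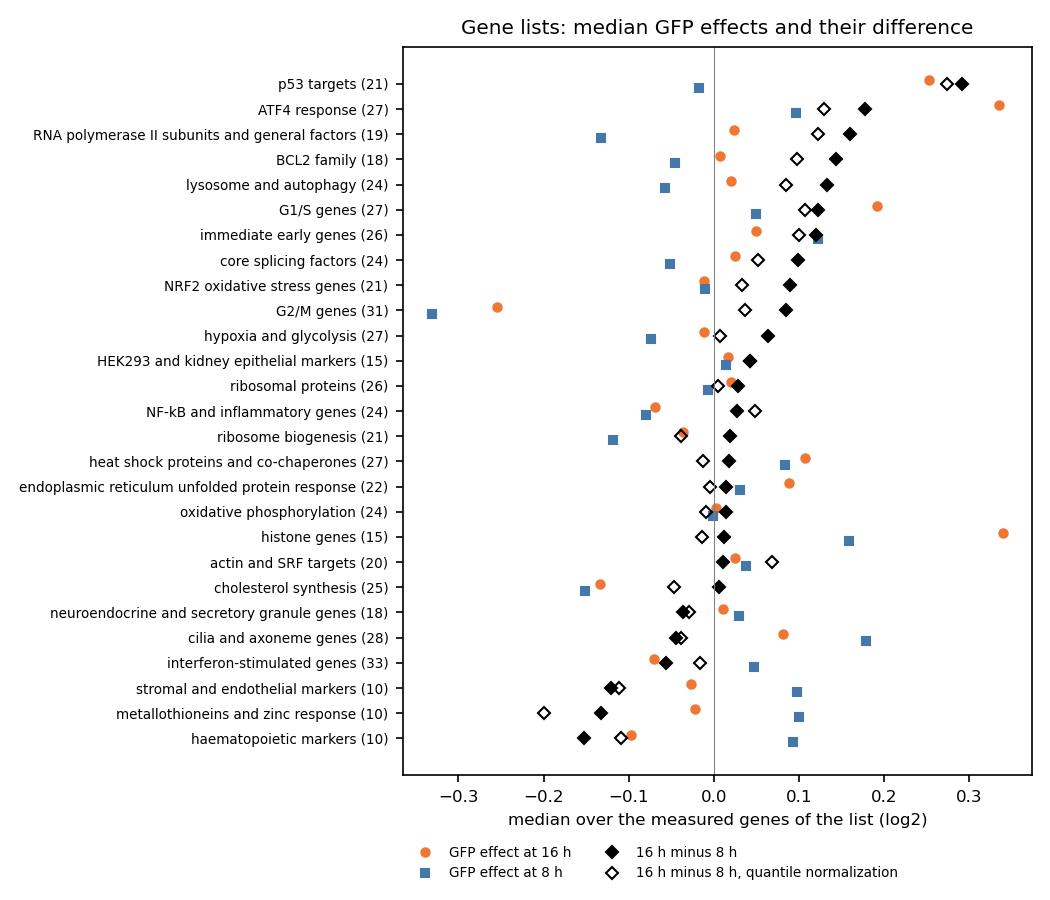
Median over the measured genes of each list (number in brackets) of the GFP effect at 16 h, the GFP effect at 8 h and the difference of each gene's effects, in log2 units, with the difference after quantile normalization as open symbols. The p53 targets have the highest median difference, 0.29, and the haematopoietic markers the lowest, -0.15.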

How the data were processed

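The deposited values are log2 expression per probe set and array, made by the authors with RMA in R 2.11.1 for the 8 and 16 h arrays, per the submitters' processing notes. The authors also deposited, per time, group means, log2 fold changes and a posterior probability, a score from 0 to 1 of a model not given in the sources used here. Those group means equal the array means for all 54675 probe sets (tolerance 1e-06). Symbols come from the deposited tables, of which 16560 were current in RefSeq, 1847 were updated and 1635 kept. No depth applies to arrays, and their number limits the precision.

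limma 3.58.1 under R 4.3.3 was used to fit group means to the 12 arrays (lmFit, eBayes, two-sided, Benjamini-Hochberg over 41716 probe sets, threshold 0.05). The 24 h arrays were left out, since they spread widely within a label, and so were the unsorted 2 h arrays. The 24 h arrays were also normalized apart with another R version. The procedure was checked on simulated data. The alternatives were other normalizations, filters, arrays, priors, weights, replicate blocks and leaving out each array.

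Named genes are the 12 smallest p per direction, since fewer than 5 passed, 16 fixed genes of stress, cytoskeleton and cell cycle, and passing list members, of which there were none. Some genes are not reported here. Other members named from a list and the set of strongest effects were chosen after their values were seen. The genes and the 27 lists were chosen with earlier results of these data known. Promoter motifs were not compared, since 0 genes passed.

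No label gives the day or dish of a replicate number. Whether the numbers pair the populations was checked with the correlation of their deviations from the group means. It was 0.351, 0.116 and 0.439 for the same numbers at 16 h and 0.275, 0.276 and 0.354 at 8 h, all above 0.1. The numbers were therefore taken as pairs within each time for the pairwise effects and the replicate block. The main fit, with its SEs, intervals and adjusted p, did not use the pairing. The median SE of the difference was 0.16 in the main fit and 0.14 with the block within each time.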

Additional observations from a re-analysis of the deposited data

Results flagged for a closer look

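The difference of the GFP effect itself passed for 6 probe sets of the bioB control, a bacterial RNA added for hybridization and outside the probe sets with a gene symbol. In the limma fit of all 54675 probe sets, 16 h minus 8 h was -2.31 for AFFX-BioB-3_at, -2.23 for AFFX-BioB-5_at, -2.50 for AFFX-BioB-M_at, -2.37 for AFFX-r2-Ec-bioB-3_at, -2.58 for AFFX-r2-Ec-bioB-5_at and -2.69 for AFFX-r2-Ec-bioB-M_at (log2 units). The adjusted p ran from 3.85e-04 to 0.0453. By array, the mean of the 6 ran from 5.78 to 6.14 in GFP-positive and from 8.09 to 8.49 in GFP-negative cells of 16 h, without overlap, and from 5.14 to 5.83 and 4.99 to 5.56 at 8 h, with overlap. Among the other spike-ins the difference was -0.42 for BioC, -0.23 for BioDn and -0.28 for CreX, and the 3′ minus 5′ signal differed by 0.10 for ACTB and 0.03 for GAPDH.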

How the results depend on the processing

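No probe set passed the difference as reported, and 0 or 1 did when each array was left out. The count was 1 with the 2 h arrays in the fit, 1 with equalized interquartile ranges (WIPF2 in both) and 7 over all probe sets (WIPF2 and the 6 bioB controls). At an unadjusted p under 0.05 it was 1965 without the 40% of lowest level, 1815 with 1 probe set per gene and 2066 to 3626 with an array left out. The 16 h count of 1300 was 2035 with the 2 h arrays, 19 with all 23 arrays and 352 to 1354 with an array left out. The 8 h count of 2469 was 1110 with all 23 arrays and 911 to 2411 with an array left out. With the replicate block within each time the counts were 0, 4739 at an unadjusted p, 2752 at 16 h and 4697 at 8 h, and with the block over both times they were 0, 3409, 1432 and 2737. The pairing changed no call of the difference. The share of 16 h calls above 0 was 62.4% as deposited, 71.7% after quantile normalization, 76.8% with centred and 78.8% with interquartile-scaled arrays, and that of 8 h calls was 33.6%, 50.0%, 35.9% and 55.7%.

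Of the named probe sets, 31 alternative values changed sign, none from a difference that passed, and the cause was not tested. DNAJB1 was -0.011 after quantile normalization and -0.14 with interquartile scaling, ACTA1 was -0.26 and -0.15, and FOS was -0.022 after quantile normalization. With each array left out in turn, DNAJB1 ran from -0.054 to 0.18, EGR1 from -0.051 to 0.30, IFIT1 from -0.023 to 0.36, ACTA1 from -0.23 to 0.14, FOS from -0.14 to 0.28, DDIT3 from -0.44 to 0.23, DNAI4 from -0.47 to 0.11, RBM26-AS1 from -0.28 to 0.17 and CFAP43 from -0.14 to 0.35. The other 1116 values of named probe sets kept their sign and side of the threshold, and 4 passed it (WIPF2 in 3 settings, RAP1A in 1). Signal over background was not given in the files used, so dim probe sets were not marked as such.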
